A study of Sus scrofa with 5 samples.

Results

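The miRNAs followed were ssc-miR-371-5p, ssc-miR-7136-5p, ssc-miR-184, ssc-miR-664-5p, ssc-miR-664-3p and ssc-miR-4332. These 6 names are part of 411 reported mature miRNAs, of which 327 had a read in some library. They were chosen by their reads per 1000000 mature miRNA reads (RPM), which in both blastocyst libraries lay far above those of every cultured sample, with no stated threshold. The height of that step is therefore described here without a test.

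Small RNA was sequenced from whole pig blastocysts, from their nearest cultured counterpart and from somatic cells. The 2 blastocyst libraries (PA-BL, numbered by their labels, here BL_1 and BL_2) came from day 7 embryos made by parthenogenetic activation. In this method an electric pulse starts development of an oocyte without sperm. After the pulse the oocytes were briefly exposed to the kinase inhibitor 6-dimethylaminopurine (6-DMAP), and hatched embryos were collected. A blastocyst holds trophectoderm, the forerunner of the placenta, beside the inner cell mass, and a library of whole embryos does not separate them. Pig ES-like cells were an embryonic stem cell-like line derived from blastocysts and kept on mouse embryonic fibroblast feeders with stem cell factor and basic fibroblast growth factor. PEBs were embryoid bodies formed from colonies of these ES-like cells in hanging drops without the cytokines, so both samples share 1 source. PFFs were fibroblasts grown from trunk tissue of mixed-breed fetuses. Each culture had 1 library, so a difference between ES-like cells, PEBs and PFFs has no replicate check. The labels give no genetic change for any group. In these bulk samples, fewer cells of a type and less RNA per cell cannot be told apart.

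A miRNA hairpin gives 2 possible mature strands, the 5p and 3p arms, and the strand held by an Argonaute protein pairs with target mRNAs through its seed near the 5′ end. miR-371 belongs to the miR-371 to miR-373 cluster of humans, whose mouse counterpart is the miR-290 to miR-295 cluster. Both clusters are known for their activity in early embryos and embryonic stem cells. Some of their 3p arms, though not all, carry the seed shared with miR-302, which lowers inhibitors of the cell cycle. The name in the pig table is a 5p arm. miR-184 is a conserved miRNA best known from the lens and cornea of the eye. miR-664 is made in humans from a hairpin that overlaps a small nucleolar RNA in an intron of RAB3GAP2. miR-7136 and miR-4332 are late-numbered miRBase names, and no function is given for them here.

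In RefSeq (assembly Sscrofa11.1, used for neighbourhood only), 4 of the 5 precursors matched a gene by name. MIR371 had NLRP12 as its nearest gene on one side. MIR664 lay inside RAB3GAP2 and within 100000 bases of MIR194B and MIR215. MIR184 lay inside an uncharacterised long non-coding RNA gene, and MIR7136 lay beside TMEM170B. ssc-mir-4332 was not matched. No 2 of the matched precursors were neighbours. The arms of miR-664 share a hairpin, so the 6 names stand for 5 precursors.

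Mature miRNA reads numbered from 113743 in BL_1 to 27071931 in PFFs, and 1 read was worth from 8.79 RPM down to 0.0369 RPM. Intervals below are 95% and cover counting error only, with no variation between samples. They take each read as independent, although PCR copies are not independent molecules, so they may be too narrow. The sample sheet of the study gives the mature read totals of ES-like cells and PFFs the other way round than the labelled columns sum to. The labelled columns were kept, and values scaled by the aligned read totals of that sheet were also computed with these totals exchanged between both samples (exchanged totals). Exchanged totals would put the mature reads of PFFs at 126% of their aligned reads. The cell labels were checked on marker lists. The 8 mesenchymal and fibroblast-associated miRNAs, all with reads, summed to 45647 RPM in BL_1 and 74471 in BL_2, while ES-like cells had 223041, PEBs 330311 and PFFs 711910. ssc-miR-21 alone gave 38578 and 69981 RPM of the BL sums, and ssc-miR-22-3p did not separate BL_1 (6805) from PFFs (6899). ssc-miR-145-5p, ssc-miR-199b-5p and ssc-miR-214 had no read in BL_1. Of the 10 names of the pluripotency list, 5 had reads, and no miR-302 or miR-367 name was among them. Such counts, here and for the other lists, do not separate a reported name without reads from a name not reported at all. The 2 follicle and oocyte-associated names, ssc-miR-202-5p and ssc-miR-202-3p, summed to 61.5 RPM in BL_1, 43.5 in BL_2 and at most 0.628 in a culture, and their part in the blastocyst values was not tested. Of the 6 blood cell-associated names 5 had reads, with summed levels from 3.58 RPM in PFFs to 105.5 in BL_1, which came from ssc-miR-486 alone. The other 4 were at 0 in BL_1, where 3 counts are 26.4 RPM. In BL_2, ssc-miR-451 stood at 13.3 RPM, against 13.8 in ES-like cells, and ssc-miR-142-3p was at 0.

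ssc-miR-371-5p was the most abundant reported miRNA of both blastocyst libraries, at 324635 RPM (321333 to 327964) in BL_1 and 296148 RPM (295508 to 296788) in BL_2, a mean of 310391 ± 20144 (SD, n = 2). It stood at 30.9 RPM (26.7 to 35.5) in ES-like cells, 0.505 RPM (0.218 to 0.995) in PEBs and 0.185 RPM (0.0600 to 0.431) in PFFs. The reads behind these values were 36925, 823927, 197, 8 and 5. The lower blastocyst library was 9580 times (8331 to 11072) the ES-like value, and 15634 times with TMM (library scaling factors of edgeR that trim extreme miRNAs). In order of level the miRNA was first in both BLs, but only 192nd of the 309 names with a read in ES-like cells. PEBs had it at place 285 of 306 and PFFs at place 288 of 315. Such an order within a library does not depend on the scale between libraries.

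ssc-miR-371-5p also differed among the cultures, which had not been the reason for its choice. ES-like cells were 61.2 times (30.5 to 144) as high as PEBs, formed from these cells, and 167 times (70.5 to 521) as high as PFFs. The 8 reads of PEBs and the 5 of PFFs gave a ratio of 2.73 with an interval from 0.788 to 10.6, so no difference between these samples was detectable at this depth. The ES-like value was higher than that of PEBs and of PFFs on every scale tried, but the ratios moved. Over PEBs it was 37.3 with TMM and 20.4 with exchanged totals, and over PFFs 60.2 and 20.2.

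ssc-miR-7136-5p had the next highest step. It stood at 1011 RPM (835 to 1214) in BL_1 and 835 RPM (801 to 870) in BL_2, from 115 and 2323 reads. ES-like cells had 4 reads, PEBs 3 and PFFs 8, which gave 0.628, 0.189 and 0.296 RPM. The lower blastocyst library was 1330 times (519 to 4886) the ES-like value, and the width of that interval comes from the 4 reads. With a pseudocount of 10 RPM the step was 79.5-fold. Among the cultures, all 3 ratios had intervals in RPM that included 1, so on that scale they have no order at this depth. The log2 of ES-like cells over PFFs was 1.09 in RPM, but -0.39 with TMM and -1.96 with exchanged totals. That of PEBs over PFFs was -0.64 in RPM and -2.10 with exchanged totals. The name was 53rd in BL_1 and 54th in BL_2, and between 280th and 291st in the cultures.

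The other arm of this hairpin was almost absent. ssc-miR-7136-3p had 0 reads in BL_1, which allows up to 26.4 RPM (3 counts), then 7 reads in BL_2 and 1 in each culture. In BL_2 the 5p arm thus held 99.7% of the reads of both arms (exact interval 99.4 to 99.9%). The few reads of the cultures left wide intervals for this share, from 28.4 to 99.5% in ES-like cells, 19.4 to 99.4% in PEBs and 51.8 to 99.7% in PFFs.

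ssc-miR-184 stood at 1591 RPM (1368 to 1841) in BL_1 and 587 RPM (559 to 616) in BL_2, from 181 and 1633 reads. It was at 10.0 RPM (7.73 to 12.8) in ES-like cells, 9.40 RPM (7.95 to 11.04) in PEBs and 0.628 RPM (0.366 to 1.01) in PFFs. The lower blastocyst library was 58.4 times (45.5 to 76.3) the ES-like value, a step that was 158 without BL_2 and 29.8 with the pseudocount. In RPM, ES-like cells and PEBs did not differ beyond counting error, with a ratio of 1.07 (0.784 to 1.44), but the log2 of this ratio was -0.62 with TMM, -0.53 per genome-aligned read and -1.49 with exchanged totals. Both stood above PFFs, by 16.0 times (9.25 to 29.1) and 15.0 times (9.04 to 26.4) in RPM. On the log2 scale ES-like cells over PFFs was 4.00, but 2.52 with TMM and 0.95 with exchanged totals. PEBs over PFFs was 3.90, but 3.15 with TMM and 2.44 with exchanged totals.

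The arms of miR-664 were both high in blastocysts. BL_1 and BL_2 had 1257 and 1015 RPM of ssc-miR-664-5p, from 143 and 2825 reads, while ES-like cells had 8.003, PEBs 9.40 and PFFs 5.43. Of ssc-miR-664-3p they had 545 and 1170 RPM, from 62 and 3256 reads, whereas the cultures had 6.28 (ES-like cells), 3.03 (PEBs) and 9.60 (PFFs). The lower blastocyst library was 108 times (91.6 to 128) the highest culture for the 5p arm, which was PEBs, and 56.8 times (42.3 to 75.1) for the 3p arm, which was PFFs. The latter step was 122 without BL_1, 31.4 with TMM and 28.3 with the pseudocount, which gave 52.9 for the 5p arm. In RPM the cultures thus had a different order for each arm, but with exchanged totals both arms had PFFs highest and ES-like cells lowest. For the 3p arm PFFs were 3.17 times (2.32 to 4.41) as high as PEBs (log2 of PEBs over PFFs from -3.12 to -1.67 over all scales), while for the 5p arm PEBs were 1.73 times (1.37 to 2.19) as high as PFFs, a direction that turned with DESeq2's size factors (log2 of -0.21) and with exchanged totals (-0.67). In RPM, ES-like cells stood between them for the 3p arm, 2.07 times (1.33 to 3.22) as high as PEBs (log2 of -0.54 with exchanged totals), and did not differ from PEBs beyond counting error for the 5p arm (0.851, 0.607 to 1.18), where the log2 was -0.95 with TMM and -1.82 with exchanged totals.

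The share of the 5p arm in the miR-664 reads needs no scale between libraries. BL_1 had 69.8% (exact interval 63.0 to 76.0%) and BL_2 46.5% (45.2 to 47.7%), against 56.0% (45.2 to 66.4%) in ES-like cells, 75.6% (69.0 to 81.5%) in PEBs and 36.1% (31.4 to 41.0%) in PFFs. The blastocyst values lay within the range of the cultures. The BL replicates differed by 23.3 percentage points, with intervals that did not overlap. Of 78 hairpins with both arms listed, 41 had 10 or more reads of both arms together in each library, and among the 40 others the median difference between BL_1 and BL_2 was 1.73 points. That difference was smaller than for miR-664 in 38 of the 40, and miR-129a had the largest, 29.0 points.

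**Figure D1:**
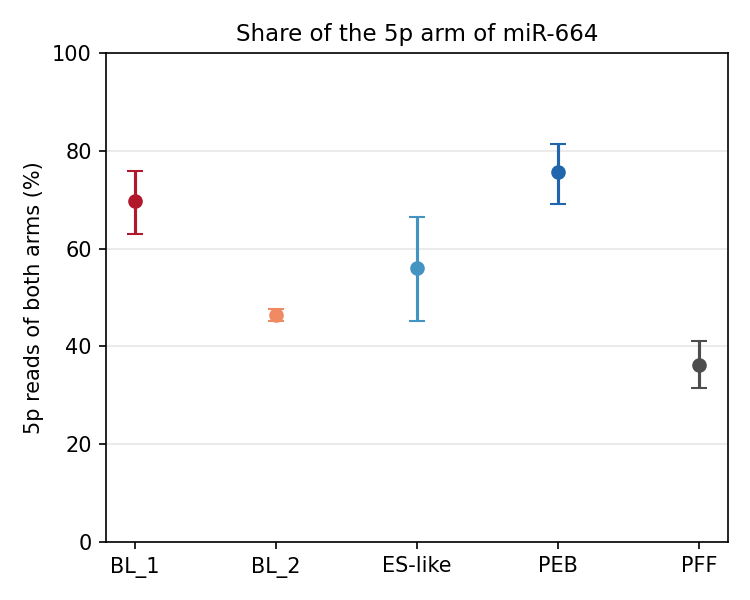
Share of the 5p arm in the reads of both arms of miR-664 (%, y axis) in each library (x axis); points are the shares and bars exact 95% intervals for counting error. BL_1 (69.8%) lies near PEBs (75.6%) and BL_2 (46.5%) between ES-like cells and PFFs, so the shares do not separate blastocysts from cultures.

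The neighbours of MIR664 did not share its pattern. ssc-miR-215 had 0 reads in BL_1 and 11.9 RPM in BL_2 against 271 RPM in ES-like cells, and PEBs and PFFs had 142 and 2.99. ssc-miR-194b-5p had 0 reads in both BLs, which by the same 3 counts allows up to 26.4 and 1.08 RPM, and 6.12, 2.46 and 0.923 RPM in the cultures. In RPM the highest measured value of each neighbour lay in ES-like cells, whereas those of both arms of miR-664 lay in blastocysts. Of the other scales, only aligned totals exchanged between ES-like cells and PFFs moved the neighbours' highest values, to PEBs for ssc-miR-215 and to PFFs for ssc-miR-194b-5p. For ssc-miR-194b-5p the limit of 26.4 RPM in BL_1 exceeds the 6.12 RPM of ES-like cells, so BL_1 cannot be placed below them.

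ssc-miR-4332 had the fewest blastocyst reads and the smallest step. It stood at 61.5 RPM (24.7 to 127) in BL_1 from 7 reads and 148 RPM (134 to 163) in BL_2 from 411 reads. ES-like cells had 3.45 RPM (2.16 to 5.23), PEBs 2.97 (2.18 to 3.94) and PFFs 0.443 (0.229 to 0.774), from 22, 47 and 12 reads. The lower blastocyst library was 17.8 times (6.43 to 43.2) the ES-like value, a step that was 42.8 without BL_1, 29.0 with DESeq2's size factors and 5.32 with the pseudocount. ES-like cells and PEBs had a ratio of 1.16 (0.668 to 1.97; log2 of -1.37 with exchanged totals), and they were 7.79 times (3.69 to 17.3) and 6.69 times (3.49 to 13.9) as high as PFFs. On the log2 scale the former was 2.96 in RPM, 1.49 with TMM, 1.84 in aligned RPM (reads per 1000000 aligned reads) and -0.088 with exchanged totals. The latter was 2.74 in RPM, 1.74 with DESeq2's size factors and 1.28 with exchanged totals.

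**Figure D2:**
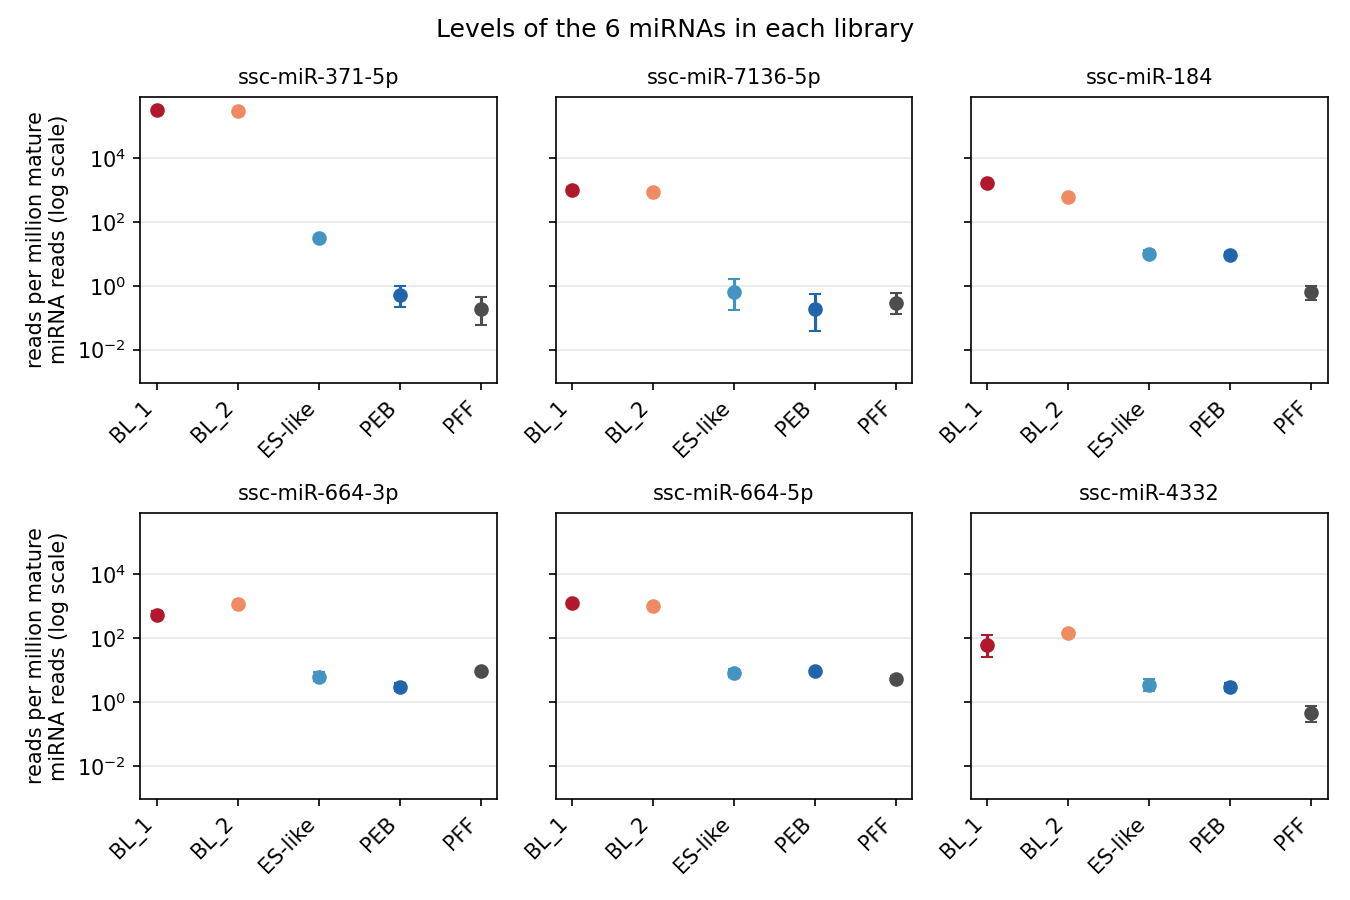
Level of each of the 6 miRNAs (RPM, logarithmic y axis) in the 5 libraries (x axis); points are single libraries and bars exact 95% Poisson intervals. Both BL points lie above all culture points in every panel, and ssc-miR-371-5p stands at 296148 RPM in BL_2, whereas ES-like cells have 30.9 and PFFs 0.185.

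All 6 names were more than 10-fold higher in both BLs than in each culture, which their choice fixed, against 6.23% of the 305 miRNAs with at least 10 reads in some library. At more than 2-fold it was again all 6, against 12.1%. The median of the ratio of the lower blastocyst library to the highest culture was 83.2 for the 6 names and 0.129 over the 305. The latter includes names with no read in BL_1, and over the 120 with enough reads in each BL the median was 0.540. Among the 120 miRNAs that reached 10 reads in both BLs, ssc-miR-371-5p, ssc-miR-7136-5p and ssc-miR-664-5p held the first 3 places by this ratio, and ssc-miR-184 and ssc-miR-664-3p the 5th and 6th. Between them stood ssc-miR-205, a miRNA known from stratified epithelia, with 4748 RPM in BL_1, 5753 in BL_2 and at most 71.7 in a culture, a ratio of 66.2. Of the 7 names of the eye, skin and epithelium list only 2 had reads. The other one, ssc-miR-429, was low in BLs (0 and 23.4 RPM) and stood at 1199 RPM in ES-like cells and 718 in PEBs. ssc-miR-320, ssc-miR-378, ssc-miR-7139-5p and ssc-miR-139-5p followed the 6th place, with ratios of 21.2, 18.3, 15.9 and 11.5. ssc-miR-4332 missed the read minimum in BL_1. Among names with fewer than 10 reads in BL_1, ssc-miR-489, ssc-miR-202-5p and ssc-miR-105-1 had ratios of 85.5, 59.0 and 31.1, higher than that of ssc-miR-4332.

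**Figure D3:**
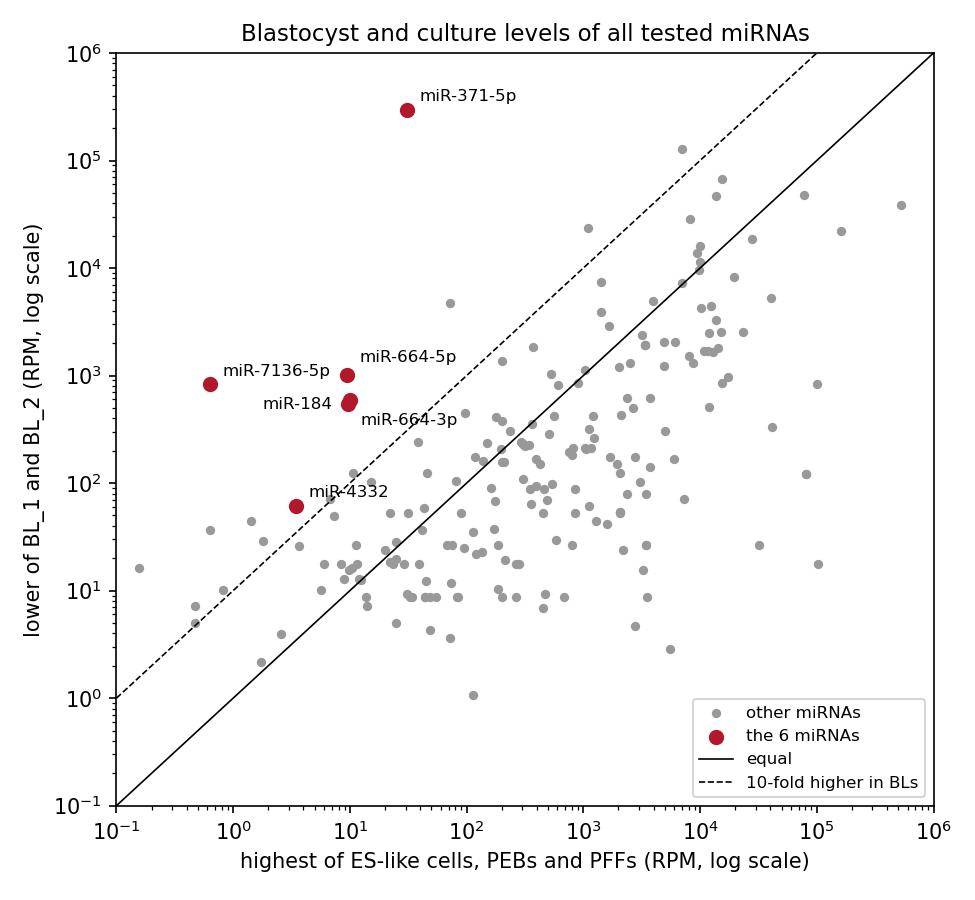
Lower of BL_1 and BL_2 against the highest of ES-like cells, PEBs and PFFs (both RPM on logarithmic axes) for 208 miRNAs; 97 of the 305 with no read in a BL library or in any culture are left out. The 6 named miRNAs lie above the dashed line of a 10-fold difference, and ssc-miR-371-5p lies farthest from the line of equality.

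By sum, the 6 names held 32.9% (32.6 to 33.2%, Wilson interval) of all mature miRNA reads in BL_1 and 29.99% (29.94 to 30.04%) in BL_2. Their share was 0.00593% in ES-like cells, and PEBs and PFFs had 0.00255% and 0.00166%. ssc-miR-371-5p made up 98.6% and 98.7% of the members' reads in BL_1 and BL_2 and 52.1% in ES-like cells, but 1.98% and 1.11% in PEBs and PFFs. For each read of ssc-miR-664-5p, for example, there were 258 and 292 of ssc-miR-371-5p in the BLs and 3.86 in ES-like cells, against 0.0537 and 0.0340 in PEBs and PFFs. The other 5 names together stood at 4466 and 3755 RPM in the BLs and at 28.4 (ES-like cells), 24.98 (PEBs) and 16.4 (PFFs) in the cultures.

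The step depended on what the reads were divided by. Mature miRNA reads equalled 1.18% and 3.53% of the genome-aligned reads in BL_1 and BL_2, but 29.7%, 45.9% and 64.8% in ES-like cells, PEBs and PFFs, with aligned totals taken from the sample sheet. Per 1000000 aligned reads (aligned RPM), every miRNA therefore dropped by 4.44 on the log2 scale in BLs against the cultures, on average. ssc-miR-371-5p then stood at 3840 and 10462 aligned RPM in the BLs against 9.18 in ES-like cells, and PEBs and PFFs had 0.232 and 0.120. Its lower blastocyst value was 418 times (364 to 484) the ES-like value. The ratio to the highest culture was 62.5 (30.7 to 148) for ssc-miR-7136-5p, 4.37 (3.50 to 5.46) for ssc-miR-184 and 3.45 (2.72 to 4.37) for ssc-miR-664-5p. The paper gives miRNAs as a share of all small RNAs, a different denominator. Those shares were higher than the ones above in both BLs, ES-like cells and PEBs, but lower in PFFs. Steps on that base were not computed.

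For the remaining names the step was lost in aligned RPM. ssc-miR-664-3p stood at 6.45 aligned RPM in BL_1 and 6.22 in PFFs, a ratio of 1.04 (0.773 to 1.37), although BL_2 was 6.65 times (5.86 to 7.57) PFFs. ssc-miR-4332 stood at 0.728 in BL_1 and 5.22 in BL_2 against 1.36 in PEBs, so the 2 BLs fell on either side of PEBs. More than 2-fold higher in both BLs were 4 of the 6 names, against 2.3% of the 305 miRNAs, and 5 of the 6 had both BL values above every culture value, against 3.61%. The fifth was ssc-miR-664-3p, whose counting intervals in BL_1 and PFFs overlapped and whose order turned with exchanged totals (log2 of -0.91). The choice of members had used RPM of the same libraries, so these shares are no test either.

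**Figure D4:**
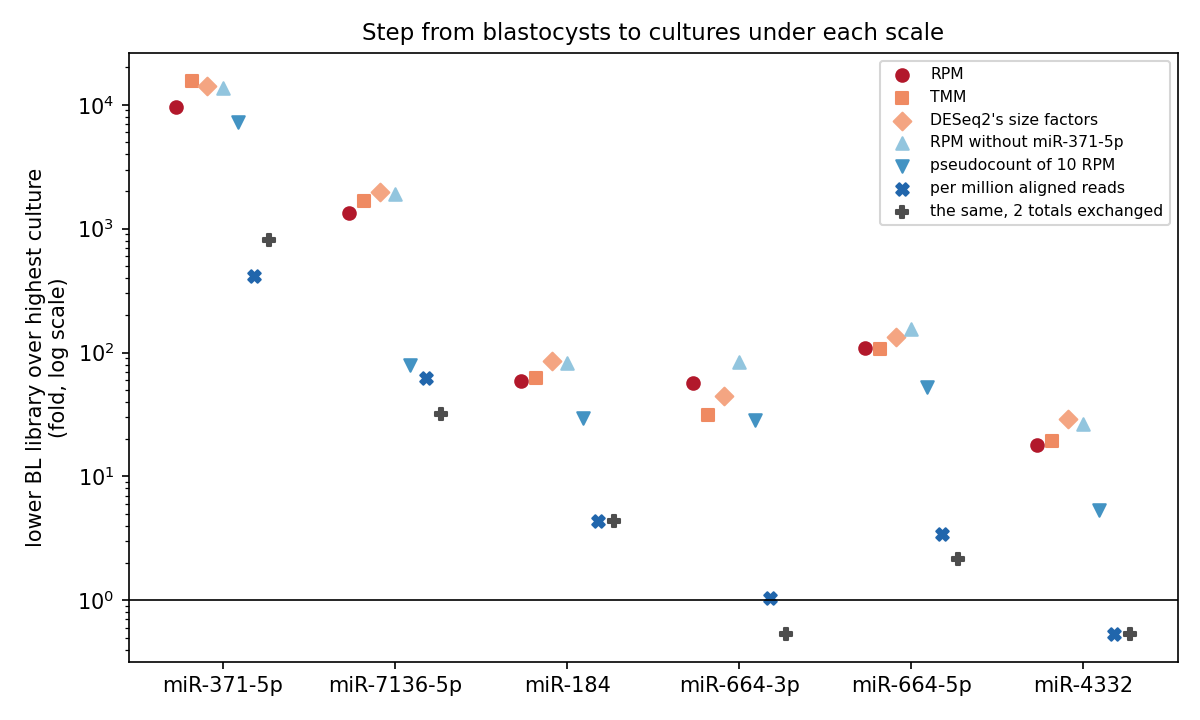
Ratio of the lower BL library to the highest culture (fold, logarithmic y axis) for each of the 6 miRNAs (x axis) under 7 scales or pseudocounts, given by symbol; the line marks a ratio of 1. ssc-miR-371-5p and ssc-miR-7136-5p stay at 32.1-fold or more, while ssc-miR-664-3p and ssc-miR-4332 reach ratios of 0.532 and 0.535 in aligned RPM with the totals of ES-like cells and PFFs exchanged.

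The BL replicates agreed closely for some names and not for others. BL_1 over BL_2 was 1.096 (1.085 to 1.108) for ssc-miR-371-5p, 1.21 (0.995 to 1.46) for ssc-miR-7136-5p and 1.24 (1.04 to 1.47) for ssc-miR-664-5p. ssc-miR-184 was 2.71 times (2.31 to 3.16) as high in BL_1, whereas ssc-miR-664-3p and ssc-miR-4332 were 2.15 times (1.67 to 2.81) and 2.40 times (1.15 to 6.01) as high in BL_2. These intervals compare the 2 libraries, not blastocysts in general. Over the same 120 miRNAs, the median difference in either direction was 1.37-fold, and 111 of them differed by less than ssc-miR-184. Of the 5 names among these 120, which leave out ssc-miR-4332, 1 was more than 2-fold higher in BL_1 (10% of the 120) and 1 in BL_2 (8.33%). In aligned RPM, BL_1 dropped by 1.58 on the log2 scale against BL_2, and all 6 names were then lower in BL_1, as were 98.3% of the 120 miRNAs. On that scale BL_2 was 6.41 times as high as BL_1 for ssc-miR-664-3p and 7.17 times for ssc-miR-4332.

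Among the cultures, 3 of the 6 names were more than 2-fold higher in ES-like cells than in PEBs (25.6% of the 305 miRNAs) and 0 were in PEBs over ES-like cells (20.7%). ES-like cells exceeded PFFs in 4 (52.5%) and PFFs exceeded ES-like cells in 0 (17.7%). PEBs exceeded PFFs in 3 (44.3%), and PFFs exceeded PEBs in 1 (16.7%), which was ssc-miR-664-3p. These counts are in RPM, and with 1 library each they are differences between libraries. They include ssc-miR-7136-5p in ES-like cells over PEBs and over PFFs, and ssc-miR-371-5p in PEBs over PFFs, whose intervals included 1. A change of scale moves all miRNAs of a library alike, so the share over the 305 is given beside each count. With TMM, ES-like cells exceeded PEBs in 2 (11.8%) and PFFs in 3 (28.9%), and in aligned RPM also in 2 (12.5%) and 3 (32.1%). On these scales PEBs exceeded ES-like cells in 0 (34.1% and 32.1%), PFFs exceeded ES-like cells in 1 (39.7% and 33.4%), PEBs exceeded PFFs in 2 (34.1% and 36.1%) and PFFs exceeded PEBs in 2 (27.5% and 24.6%). With DESeq2's size factors, ES-like cells exceeded PFFs in 3 (35.1%) and the reverse held for 1 (33.1%), while PEBs exceeded PFFs in 2 (31.8%) and the reverse held for 2 (32.8%). With exchanged totals, ES-like cells exceeded PEBs in 1 (5.25%) and PFFs in 1 (15.1%), whereas PEBs and PFFs exceeded them in 3 each (61% and 65.6%). On that scale PEBs exceeded PFFs in 2 (25.6%) and PFFs exceeded PEBs in 2 (42.6%). Counts beyond RPM also include ssc-miR-7136-5p, which had only 4, 3 and 8 reads in ES-like cells, PEBs and PFFs. It was counted for ES-like cells over PEBs with TMM and in aligned RPM, and for PFFs over PEBs on each of these scales. With exchanged totals it was also counted for PFFs over ES-like cells. No intervals were computed for these culture ratios outside RPM. In RPM, counting intervals placed PFFs below both other cultures for ssc-miR-184, ssc-miR-664-5p and ssc-miR-4332, and PEBs below both for ssc-miR-664-3p. The place of PFFs for ssc-miR-664-5p depended on the scale. ES-like cells over PFFs was 1.47 (1.05 to 2.04) in RPM, but its log2 was -0.92 with edgeR's TMM factors, -0.48 with DESeq2's size factors and -0.57 in aligned RPM.

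The other miRNAs of the pluripotency-associated clusters that had reads did not share the step of ssc-miR-371-5p. Of the 19 names on this list, which also held miR-302, miR-367, miR-372 and miR-373, 11 had reads. All 11 were of the miR-17 to miR-92 and miR-106a to miR-363 clusters, and names of the same cluster are not independent items. More than 2-fold higher in both BLs than in each culture were 0 of the 11, against 12.1% of all miRNAs tested, so this count is near that share. In ES-like cells, 10 of the 11 were more than 2-fold higher than in both BLs, against 50.8% of the 305 miRNAs. In aligned RPM all 11 were, where 82.3% of all were. The highest RPM lay in ES-like cells for all 11 (31.1% of the 305). It lay there for 10 with DESeq2's size factors (22%) or without ssc-miR-371-5p in the totals (28.2%), for 6 with TMM (13.4%), for 8 in aligned RPM (23.6%) and for 4 with exchanged totals (5.57%). ssc-miR-17-5p, ssc-miR-19a and ssc-miR-20a were not highest there on the last 3 of these scales. ssc-miR-363 stood at 422 and 331 RPM in the BLs and 41258 in ES-like cells, and PEBs and PFFs had 10404 and 280.0. ssc-miR-106a, whose seed family counters cell cycle inhibitors, stood at 26.4, 15.5, 3246, 874 and 14.1 RPM in the same order. ssc-miR-92a was the exception to the 2-fold difference, with 53937 and 47804 RPM in the BLs and 77449 in ES-like cells.

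The likeness of patterns was measured by Pearson's r of log2(RPM + 1) over the 5 libraries, among 115 other miRNAs that reached 10 reads in both BLs. It is a description, since the points share their libraries and all 6 names were chosen for 1 shape. Closest to ssc-miR-371-5p were ssc-miR-361-3p (r = 0.991) and ssc-miR-7 (r = 0.990). ssc-miR-320 was closest to ssc-miR-7136-5p (r = 0.996), ssc-miR-664-5p (r = 0.995) and ssc-miR-664-3p (r = 0.970), with ssc-miR-139-5p next for the first and second of these (r = 0.983 and 0.992) and ssc-miR-28-3p for the third (r = 0.963). ssc-miR-486 and ssc-miR-139-5p were closest to ssc-miR-184 (r = 0.998 and 0.995), and ssc-miR-361-3p and ssc-miR-139-5p to ssc-miR-4332 (r = 0.978 and 0.971). r ignores the size of a change: ssc-miR-361-3p stood at 1837 and 1899 RPM in the BLs and 373 in ES-like cells, a far smaller step than that of ssc-miR-371-5p.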

How the data were processed

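Small RNA libraries of 5 samples were compared, 2 of BLs and 1 each of ES-like cells, PEBs and PFFs. The authors discarded reads that were too short or lacked the adapter, trimmed the rest (Cutadapt 1.10), aligned with Bowtie 1.1.1 to the pig genome (Sscrofa10.2, per the submitters' processing notes) and counted miRBase miRNAs with miRDeep2. For reported miRNAs, the deposited values are raw counts in 493 rows, summed here over precursors. Each member had 1 row. Among the 305 miRNAs with at least 10 reads in some library, 8 names in 4 groups had equal counts in all 5 libraries, none of them a member, so sums of mature reads may count a read more than once. The deposited table of predicted miRNAs was not used here.

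RPM, ratios with exact conditional binomial intervals, exact Poisson, Clopper-Pearson and Wilson intervals (95%) were computed in Python 3.11.15 with scipy 1.17.1, and checked on simulated data. A library at 0 was set to 3 counts where a ratio needed it. No test was run, because the members were chosen on these libraries and cultures had 1 library each. Named beside the members were the other arm, the 5 next names by step, the 2 names of most similar pattern for each member and fixed lists of cluster and marker miRNAs. The members and lists were chosen with earlier results of these data known. Seeds were not compared, as no sequences were used here.

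Alternatives were TMM factors (edgeR 4.0.16), size factors (DESeq2 1.42.0), RPM without ssc-miR-371-5p, a pseudocount of 10 RPM, other read minimums, single BL libraries and reads per 1000000 genome-aligned reads (aligned RPM). Aligned totals come from the study's sample sheet, which gives the mature read totals of ES-like cells and PFFs the other way round than the sums of the labelled columns. The labelled columns were kept, and exchanging both aligned totals was added after seeing the data, although it puts the mature reads of PFFs at 126% of aligned reads.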

Additional observations from a re-analysis of the deposited data

How the results depend on the processing

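The steps of the 6 names stayed above 2-fold with TMM, DESeq2's size factors, RPM without ssc-miR-371-5p, a pseudocount of 10 RPM, either BL alone and the precursor row with the most reads. In aligned RPM 4 of 6 did, also with the totals of ES-like cells and PFFs exchanged. ssc-miR-4332 then had a log2 step of -0.90 under both, and ssc-miR-664-3p of -0.91 with exchanged totals. The count of 37 miRNAs more than 2-fold higher in both BLs was 7 in aligned RPM, 9 with exchanged totals, 24 with at least 10 reads in each BL and 19 at 10-fold. It was from 48 to 52 with a BL library left out, and other settings kept it within 1.5 times. The members' mean share of BL reads, 31.5%, was 0.724% of aligned reads and 37.9% with the largest precursor row of every miRNA, and from 29.99 to 32.9% with a BL library left out.

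Of the 18 culture ratios of the members, 4 turned against RPM with TMM, 2 with DESeq2's size factors, 4 in aligned RPM and 8 with exchanged totals. In aligned RPM the log2 of BL_1 over BL_2 was -1.45 for ssc-miR-371-5p, -1.30 for ssc-miR-7136-5p, -0.14 for ssc-miR-184, -1.27 for ssc-miR-664-5p, -2.68 for ssc-miR-664-3p and -2.84 for ssc-miR-4332. For ssc-miR-664-5p, ES-like cells over PFFs was -0.92 with TMM, -0.48 with DESeq2's size factors, -0.57 in aligned RPM and -2.49 with exchanged totals, and PEBs over PFFs was -0.21 with DESeq2's size factors and -0.67 with exchanged totals. Exchanged totals also gave -0.54 for ES-like cells over PEBs of ssc-miR-664-3p and -0.088 for ES-like cells over PFFs of ssc-miR-4332. These changes follow from the scale itself. Against PFFs, ES-like cells moved by -1.47 (log2) with TMM and -1.04 with DESeq2's size factors. BLs moved against cultures by 0.27 with the latter and 0.54 without ssc-miR-371-5p in the totals. No paired analysis was possible because only BLs had a replicate. For ssc-miR-4332, with 7 reads in BL_1, the step of 17.8-fold was 42.8 without BL_1 and 5.32 with the pseudocount. That of ssc-miR-7136-5p, 1330-fold, was 79.5 with the pseudocount.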
